A study of Homo sapiens with 6 samples.

Results

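The genes described here are human ZNF genes, those with a symbol made of ZNF and a number, that had at least 80 cDNA counts summed over 4 iCLIP libraries. They were selected on those summed counts, so their level in iCLIP is a description and carries no test. The rule left out 2 ZNF symbols, and 98 of the 390 ZNF genes listed in any iCLIP library met it, among 28231 genes listed in all. The rule uses no difference between irradiated and untreated libraries, but its sum includes both, so a gene higher in one group can pass through that group.

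U2OS is a human osteosarcoma cell line, and iCLIP sequences RNA that ultraviolet light has fixed to a protein, here TIRR carrying a FLAG tag. TIRR, the product of NUDT16L1, binds the DNA repair protein 53BP1. The iCLIP groups were 2 libraries of untreated TIRR_FLAG cells and 2 libraries of TIRR_FLAG cells given 5 Gy from an X-ray source with 4 h of recovery. RNA-seq came from WT cells, 1 untreated library and 1 library after 5 Gy and 4 h, and the design text names gamma radiation for that assay. All iCLIP cells therefore carried the stably transfected FLAG version of TIRR, and the RNA-seq cells did not. The empty-vector cells that the design text names were not analysed here, so no background of the pulldown stands beside the iCLIP levels. The labels do not say whether replicates were separate cultures, so each p-value reflects how far these libraries differ, and that spread may be technical.

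ZNF genes mostly encode proteins with C2H2 zinc fingers, small folds held by a zinc ion that read DNA and in some proteins RNA. Many of them also carry a KRAB domain, which recruits the co-repressor TRIM28 (KAP1), and through it the histone methyltransferase SETDB1 and HP1 proteins, to silence transposable elements and other loci. KRAB zinc finger genes arose by repeated duplication and lie in clusters, above all on chromosome 19, so neighbours share near-identical stretches and the division of reads between such copies is uncertain. In iCLIP these genes are measured as RNAs that came down with TIRR, not as proteins.

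Gene counts per iCLIP library ran from 400723 to 799709, the lowest in the first irradiated library, and the RNA-seq libraries held 13015406 and 13023903. Replicates differed by more than counting error, with a chi-square per degree of freedom of 1.51 between untreated and 2.12 between irradiated libraries. The p53 targets CDKN1A and MDM2, which respond to irradiation, had 2335 and 981 RNA-seq counts in untreated and 8111 and 3562 in irradiated cells, as the labels say. In iCLIP, CDKN1A had 21 and 34 counts untreated against 99 and 173 irradiated. Of the mesenchymal and osteoblast markers in RNA-seq, VIM had 36294 and 33956 counts, COL1A1 35832 and 44204, SPARC 23955 and 24912 and RUNX2 had 855 and 692, while ALPL had 113 and 120, COL1A2 6 and 2, BGLAP 3 and 4, and SP7 0 in both. Markers of other cells were low: EPCAM had 55 and 57 counts, PECAM1 55 and 39, PTPRC 12 and 12, CDH1 5 and 16, and CD3E 0.

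After irradiation 3 of the 98 ZNF genes rose in TIRR iCLIP (ZNF423, ZNF469 and ZNF846) and 0 fell, by the edgeR quasi-likelihood test at an adjusted p below 0.05. Over all 9230 tested genes, 2.43% were called higher and 1.07% lower, so the 3 rises among 98 were near that background. At an unadjusted p below 0.05 there were 17 of the ZNF genes (17.3%), 10 higher and 7 lower, beside 14.5% of all tested genes. DESeq2 called 2 higher and 0 lower, among the 55 ZNF genes for which it gave an adjusted p. Over all 3683 genes with such a value it called 105 higher and 17 lower. On the log2 scale, 57 of 98 values lay within 0.25 of 0 after scaling between libraries. The same share over all tested genes was not computed. A value near 0 does not show an unchanged level, since standard errors of genes with few counts can exceed 0.25. These are bulk libraries, so fewer cells with an RNA and less of it per cell cannot be told apart. The log2 fold changes ran from -0.96 to 1.68, 59 positive and 39 negative, with a median of 0.07 against 0.00 for all tested genes.

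Of the called genes, ZNF423 and ZNF846 have an entry in the RefSeq promoter table of GRCh38.p14, and ZNF469 has none. The 250 bases before their annotated starts are shown because these are the called genes with such a window. The ZNF423 window lies at chr16:49664325-49664574 on the minus strand, with its start 194955 bases inside the upstream end of the gene's RefSeq span. The ZNF846 window lies at chr19:9768739-9768988 on the minus strand, 17422 bases inside. Capitals mark a CCAAT match in ZNF846, and no motif searched was found in the ZNF423 window.
ZNF423: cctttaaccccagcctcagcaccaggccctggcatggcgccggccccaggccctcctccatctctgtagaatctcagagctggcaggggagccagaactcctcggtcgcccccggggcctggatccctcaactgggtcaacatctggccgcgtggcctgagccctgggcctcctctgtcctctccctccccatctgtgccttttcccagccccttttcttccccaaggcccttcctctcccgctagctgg
ZNF846: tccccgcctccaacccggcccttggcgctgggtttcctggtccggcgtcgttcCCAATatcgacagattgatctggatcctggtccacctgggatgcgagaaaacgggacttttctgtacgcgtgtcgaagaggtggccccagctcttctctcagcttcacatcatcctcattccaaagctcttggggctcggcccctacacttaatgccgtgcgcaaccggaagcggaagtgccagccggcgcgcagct

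Windows of 81 of the 98 ZNF genes were searched on both strands for the GC box, the CCAAT box, the TATA box and the p53 half-site. The GC box, spelled GGGCGG, was present in 54 of 81 windows (66.7%), against 42.3% of all 27305 RefSeq windows of the same length and 68.5% of the windows of 4493 genes with at least 80 iCLIP counts. CCAAT was present in 35.8%, 33.0% and 33.3% of these windows, in the same order. The TATA box, spelled TATAAA, was present in 1 of 81 windows (1.23%), against 11.1% of all and 5.05% of the genes at that count. The p53 half-site was present in 5 of 81 windows (6.17%), against 5.53% and 4.58%. The median number of CG dinucleotides was 20 per ZNF window, 11 over all windows and 22 over genes at that count. In GC box and CG content the ZNF windows were thus nearer to those of the 4493 genes than to all windows. The 4493 include the ZNF genes, which were chosen by the same count. A match is a description of letters and not evidence of a bound site.

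ZNF423 (ENSG00000102935) encodes a transcription factor with many zinc fingers that works with SMAD and EBF partners, and its span is chr16:49487524-49859279 on the minus strand. Its iCLIP level was 86.3 and 61.0 CPM in the untreated libraries and 226.3 and 243.3 CPM in the irradiated ones, where CPM is counts per 1000000 of the TMM-scaled gene total. Both irradiated libraries lay far above both untreated ones. The means were 73.6 ± 17.9 CPM untreated and 234.8 ± 11.97 CPM irradiated (SD, n = 2 each), a 3.20-fold rise (log2 1.68, SE 0.19, edgeR adjusted p = 2.74e-05). In RNA-seq ZNF423 had 35 counts untreated and 127 irradiated, a scaled ratio of 3.59 with an exact 95% interval of 2.45 to 5.38 for counting error only.

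ZNF469 (ENSG00000225614), the gene altered in brittle cornea syndrome, spans chr16:88100931-88440753 in RefSeq. It had 162.6 and 172.0 CPM untreated against 493.8 and 402.4 CPM irradiated. Its irradiated libraries were both more than double the untreated ones, with means of 167.3 ± 6.68 and 448.1 ± 64.7 CPM (SD, n = 2 each). The rise was 2.65-fold (log2 1.41, SE 0.15, edgeR adjusted p = 1.57e-05). RNA-seq counts were 146 and 292, a ratio of 1.98 (1.62 to 2.43). The length deposited for ZNF469 was 57799 bases against a RefSeq span of 339823 bases, so the gene counted is shorter than the span given here.

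ZNF846 (ENSG00000196605), on chr19:9748619-9786160, minus strand, had 61.3 and 64.7 CPM untreated against 100.3 and 114.7 CPM irradiated. The groups did not overlap, and the means were 63.0 ± 2.39 and 107.5 ± 10.2 CPM (SD, n = 2 each). The rise of 1.73-fold (log2 0.79, SE 0.21) passed the edgeR test by a small margin, with an adjusted p of 0.0466. This call was lost in 8 of 10 other settings, with adjusted p from 0.0800 to 0.395, among them DESeq2, library totals and leaving out either untreated library or the second irradiated one. ZNF423 and ZNF469 were called in all of those settings. In RNA-seq ZNF846 had 45 and 57 counts, a ratio of 1.25 whose interval, 0.833 to 1.90, includes 1.

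**Figure D1:**
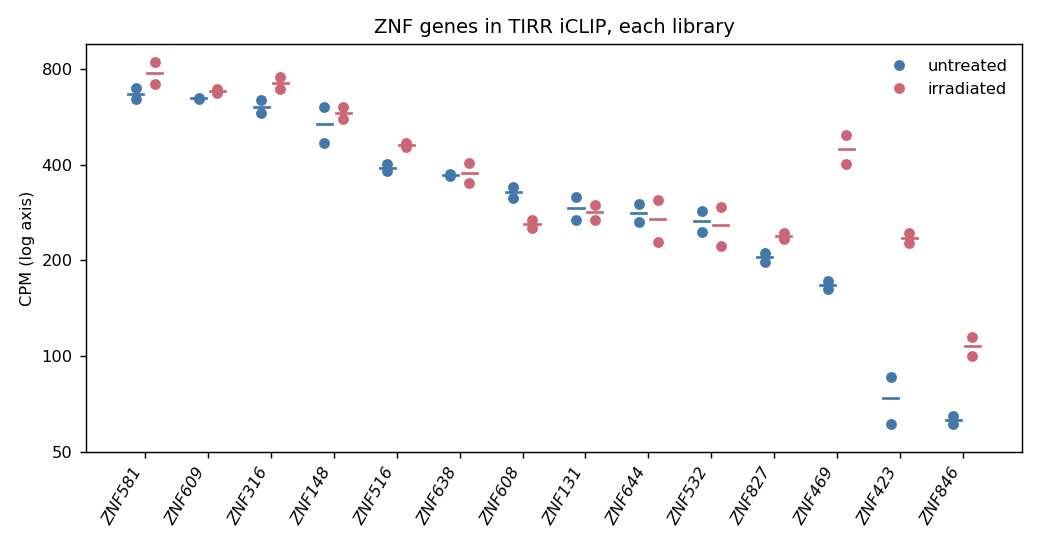
iCLIP level of the 12 ZNF genes with the most counts and of the 3 called ones (ZNF469 is both) in each library, as CPM on a log axis. Points are the 2 untreated and 2 irradiated libraries and the bars are group means. ZNF423, ZNF469 and ZNF846 show both irradiated points above both untreated ones. So do the uncalled ZNF581, ZNF609, ZNF316, ZNF516 and ZNF827, and 22.0% of all tested genes.

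Beyond single calls, 27 of the 98 ZNF genes (27.6%) had both irradiated libraries above both untreated ones in CPM, and 19 (19.4%) had both below. Over all tested genes these shares were 22.0% and 22.0%, so neither count was far from its background. The genes next to the called ones were ZNF114, ZNF12 and ZNF337, none of which passed the test. ZNF114 had 12.5 and 26.8 CPM untreated and 66.9 and 36.7 CPM irradiated (log2 1.30, SE 0.40, edgeR adjusted p = 0.0887). It rests on 82 counts in all, 32 of them untreated, and its RNA-seq ratio pointed the other way, 79 counts to 52 (0.651, interval 0.450 to 0.935).

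ZNF12 had 43.8 and 25.6 CPM untreated and 48.9 and 76.5 CPM irradiated (log2 0.91, SE 0.31, edgeR adjusted p = 0.136), and its RNA-seq ratio was 1.02. ZNF337 had 52.5 and 54.9 CPM untreated and 115.7 and 84.2 CPM irradiated (log2 0.85, SE 0.24, edgeR adjusted p = 0.0539). Its RNA-seq counts were 219 and 312, a ratio of 1.41 (1.18 to 1.68), so both assays had the higher value after irradiation. ZNF217, an oncogene of the 20q amplicon, had 66.3 and 63.4 CPM untreated and 77.2 and 116.3 CPM irradiated (log2 0.63, edgeR adjusted p = 0.184). Without a filter on low counts, and thinned to equal depth, ZNF114 was called (edgeR adjusted p = 0.0419 and 0.0412). Leaving out 1 library, which leaves a group with a single library assumed to vary like the other group, also brought several of these past the threshold: ZNF114 without the second untreated or second irradiated library (edgeR adjusted p = 0.00771 and 0.00160), ZNF12 without the first untreated or first irradiated (0.0425 and 0.00682), ZNF337 without the second irradiated (0.00761) and ZNF217 without the first irradiated (0.0240).

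On the lower side no gene was called. ZNF618 came closest, with 248.8 and 223.2 CPM untreated against 149.2 and 174.4 CPM irradiated (log2 -0.53, SE 0.16, edgeR adjusted p = 0.0890). Its groups did not overlap, and its RNA-seq counts were 588 and 449, a ratio of 0.755 (0.666 to 0.855). ZNF680 had 46.3 and 40.3 CPM untreated and 30.9 and 18.4 CPM irradiated (log2 -0.89, edgeR adjusted p = 0.216), with an RNA-seq ratio of 1.01. ZNF276 had 56.3 and 61.0 CPM against 46.3 and 30.6 CPM (log2 -0.67, edgeR adjusted p = 0.265). It lies across FANCA and VPS9D1 on the opposite strand, and whether strand was used in the counting is not stated. The other genes of the 6 most negative with groups apart were ZNF333 (log2 -0.56), ZNF397 (-0.53) and ZNF678 (-0.52), with edgeR adjusted p of 0.399, 0.451 and 0.249. The most negative value of all, -0.96 for ZNF627, was singled out after its values were seen. Its libraries overlapped, at 85.0 and 30.5 CPM untreated and 18.0 and 36.7 CPM irradiated, and edgeR called it lower without the second untreated or the second irradiated library.

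**Figure D2:**
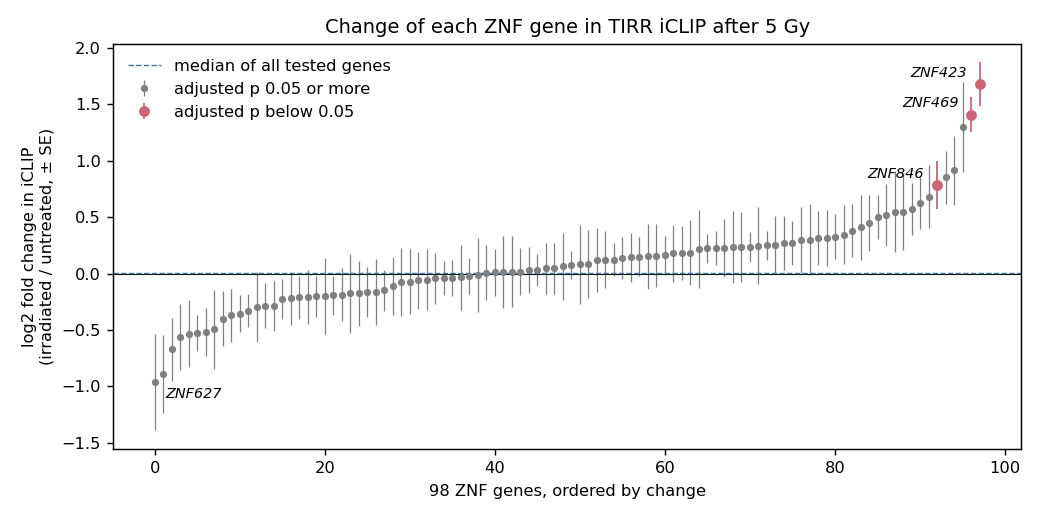
Log2 fold change in iCLIP (irradiated over untreated) of the 98 ZNF genes, ordered by change, with standard errors. The dashed line is the median of all tested genes, and the 3 called genes are marked; ZNF423 at 1.68 and ZNF469 at 1.41 have the highest values.

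The 12 ZNF genes with the most iCLIP counts held 44.3% of the counts of all 98, and of these 12 only ZNF469 was called. ZNF581, the first, had 1911 counts, at 644.0 and 694.1 CPM untreated and 715.0 and 840.0 CPM irradiated (log2 0.22, edgeR adjusted p = 0.468). Its RNA-seq counts went the other way, 300 to 208, a ratio of 0.686 (0.572 to 0.821). ZNF581 encompasses ZNF580 on the same strand, so counts at the locus may be divided between them.

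ZNF609, the host gene of a known circular RNA, had 1755 counts, at 649.0 and 642.9 CPM untreated and 691.9 and 673.2 CPM irradiated (log2 0.08, edgeR adjusted p = 0.849). Its 4 libraries lay close together. Its paralog ZNF608 had 341.4 and 313.5 CPM untreated and 252.1 and 267.7 CPM irradiated (log2 -0.33, edgeR adjusted p = 0.294), and its groups did not overlap. ZNF608 RNA-seq counts were 1249 and 793, a ratio of 0.628 (0.574 to 0.687), while ZNF609 had 1616 and 1553, a ratio of 0.9503 (0.886 to 1.02). The fold changes of these paralogs were not compared by a test.

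The transcription factor ZNF148 (ZBP-89) had 605.2 and 467.2 CPM untreated and 555.6 and 608.9 CPM irradiated (log2 0.12). ZNF316 had 637.7 and 579.4 against 689.3 and 755.8 CPM (log2 0.25), and ZNF516 had 402.6 and 380.6 against 455.3 and 466.6 CPM (log2 0.24). In both of these the irradiated libraries lay above the untreated ones without passing the edgeR test, with adjusted p of 0.380 and 0.449. ZNF131, a BTB-domain protein, had 316.4 and 268.4 against 267.5 and 298.3 CPM (log2 -0.04). ZNF644, a partner of the histone methyltransferases G9a and GLP, had 300.1 and 263.5 against 228.9 and 310.6 CPM (log2 -0.04), and ZNF532 had 285.1 and 246.4 against 221.2 and 293.8 CPM (log2 -0.02). The groups of these 3 genes overlapped. ZNF827, which recruits the NuRD complex to telomeres kept by the ALT pathway that U2OS cells use, had 211.3 and 197.6 against 234.1 and 243.3 CPM (log2 0.23, edgeR adjusted p = 0.543).

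Of the other ZNF genes with known functions, ZNF638, ZNF326, ZNF207 and ZNF106 were not called. ZNF638, a nucleic-acid binder linked to HUSH silencing, had 373.9 and 368.4 CPM untreated and 349.8 and 403.9 CPM irradiated (log2 0.03). ZNF326, of the DBIRD complex that links RNA polymerase II to splicing, had 165.1 and 196.4 against 177.5 and 143.8 CPM (log2 -0.19). ZNF207 (BuGZ, a kinetochore protein) had 83.8 and 80.5 against 72.0 and 64.3 CPM (log2 -0.28), with groups apart but an edgeR adjusted p of 0.625. ZNF106, an RNA-binding protein, had 30.0 and 22.0 against 30.9 and 42.8 CPM (log2 0.55, edgeR adjusted p = 0.509).

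In all, the summed counts of the 98 genes ran from 80 to 1911 with a median of 178. The genes just inside the threshold were ZNF480, ZNF557 and ZNF736 with 80 counts each and ZNF106 with 82 (tied with ZNF114 and ZNF875), and those just outside were ZNF487 with 79, ZNF197 with 77, and ZNF346 and ZNF785 with 76 each. As a share of gene counts, the ZNF genes made up 1.15% (exact Clopper-Pearson 95% interval 1.12 to 1.17) and 1.09% (1.07 to 1.12) of the untreated iCLIP libraries, and 1.10% (1.07 to 1.13) and 1.20% (1.18 to 1.23) of the irradiated ones. The group means, 1.12 ± 0.0380% and 1.15 ± 0.0741% (SD, n = 2 each), differed by less than the spread between libraries. In RNA-seq the same genes made up 0.352% of gene counts untreated and 0.345% irradiated. All intervals here cover counting error only.

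Relative to RNA-seq, the share of these genes in iCLIP was high, as the choice by iCLIP counts favours. The log2 ratio of iCLIP share to RNA-seq share was taken in untreated cells. It covered genes with at least 50 untreated RNA-seq counts that are listed in any iCLIP library. Its median was 1.76 over 95 of the ZNF genes, against -0.22 over all 11385 such genes. Over 213 ZNF genes below the count threshold it was -0.25. The 213 were set apart by their low iCLIP counts, so the gap between the ZNF groups follows in part from the rule. The 11385 genes had no minimum of iCLIP counts, so the gap to them follows in part from it too. A median over all genes with at least 80 iCLIP counts was not computed. Over the 95, the ratio had a Spearman correlation of 0.34 with log2 length. The assays differ in cells, since iCLIP used TIRR_FLAG cells and RNA-seq WT cells. The highest ratios were those of ZNF581 at 4.89 (29.7-fold), ZNF469 at 3.93, ZNF91 at 3.84, ZNF516 at 3.49 and ZNF407 at 3.37. ZNF91 is a KRAB protein that represses SVA elements, and had 126 counts in the untreated iCLIP libraries against 72 in untreated RNA-seq. The lowest were ZNF207 at -1.42, ZNF106 at -1.11, ZNF496 at -0.76, ZNF219 at -0.74 and ZNF384, known for leukaemia fusions, at -0.57. Thus ZNF207, with 2932 untreated RNA-seq counts, had 133 untreated iCLIP counts, while ZNF469 with 146 had 271.

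**Figure D3:**
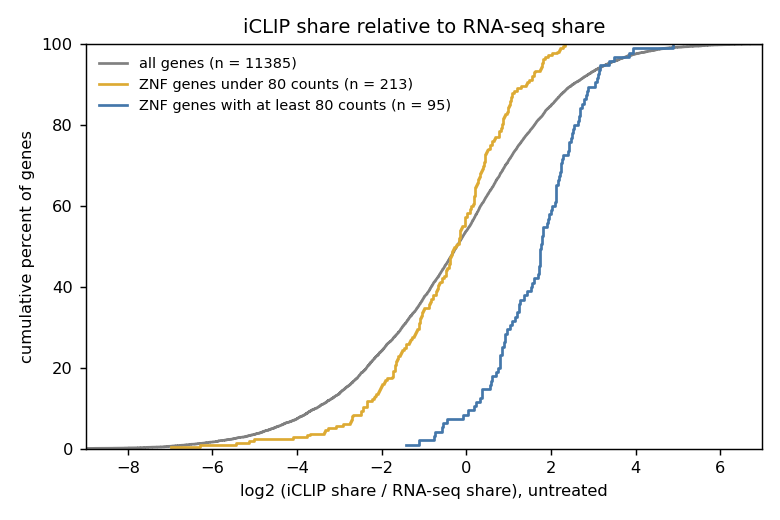
Cumulative percent of genes by log2 ratio of iCLIP share to RNA-seq share in untreated cells, for the ZNF genes, ZNF genes below 80 counts and all genes. Each curve covers genes with at least 50 untreated RNA-seq counts that are listed in any iCLIP library. The curve of the 95 ZNF genes lies to the right of the others, with medians of 1.76, -0.25 and -0.22. Both ZNF groups were set by iCLIP counts, so the gap between them follows in part from the rule. The curve of all genes had no minimum of iCLIP counts, so its gap to the 95 does too.

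Levels between genes were compared per length. Per kb of deposited length, whose definition is not stated, the ZNF genes had a median of 4.66 summed counts, against 2.88 for all genes with at least 80 counts, and a median length of 38371 against 79485 bases. The highest were ZNF580 at 309 counts per kb, ZNF581 at 188, ZNF768 at 93.3, ZNF316 at 83.3 and ZNF664 at 50.9. ZNF580 has a deposited length of 443 bases against a RefSeq span of 2469, and ZNF664 one of 6390 against 42213, so the divisor matters for these. The lowest were ZNF521, a paralog of ZNF423, at 0.610, ZNF81 at 0.664, ZNF407 at 0.767, the neuronal repressor ZNF536 at 0.909 and ZNF423 at 0.992. These values sum all 4 libraries: in the untreated ones alone ZNF423 was the lowest at 0.323, followed by ZNF521 at 0.374, ZNF81 at 0.423, ZNF407 at 0.492 and ZNF106 at 0.537, and the 5 highest were in the same order as over all 4. Across the 98 genes, log2 summed counts had a Spearman correlation of 0.36 with log2 length and 0.47 with log2 RNA-seq counts, as a description over genes that share libraries. For 15 of the 98 the deposited length differed by more than 1.5 times from the RefSeq span, and 66 overlap another RefSeq gene, 7 of them on the same strand.

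Of the 98 ZNF genes, 28 lie on chromosome 19 (28.6%), which holds 5.62% of genes with at least 80 counts and a RefSeq chromosome. The share among ZNF genes below that count was not computed, so the 98 are not set against the rest of the family here. Chromosome 7 holds 9 and chromosome 18 holds 7. The chromosome 19 genes had a median log2 fold change of 0.20, with 20 of 28 positive and 1 called (ZNF846), and the 70 others a median of 0.02 with 2 called. Groups were apart and higher in 7 (25.0%) and lower in 3 (10.7%) of the chromosome 19 genes. Among the others they were higher in 20 (28.6%) and lower in 16 (22.9%). Over all tested genes, 22.0% were apart and higher and 22.0% apart and lower, and 4637 of 9230 had a positive value. Whether the 28 differ from the rest was not tested. A run of 7 at 52058490 to 53458261 (ZNF841, ZNF480, ZNF83, ZNF611, ZNF160, ZNF347 and ZNF761) held 1472 counts, with a median log2 of 0.14 and none called. Within it, ZNF83 had 516 counts and ZNF160 had 418, while ZNF480 had 80. The run of ZNF581, ZNF580, ZNF787 and ZNF667 held 2608 counts.

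**Figure D4:**
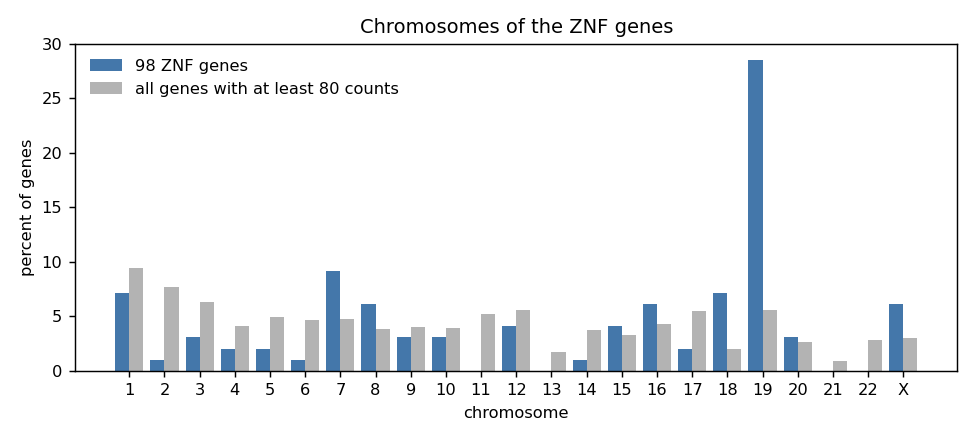
Percent of the 98 ZNF genes on each chromosome beside the percent of all genes with at least 80 iCLIP counts and a RefSeq chromosome. Chromosome 19 holds 28.6% of the ZNF genes and 5.62% of those genes. ZNF genes below that count are not shown apart.

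RNA-seq had 1 library per condition, so its differences have no replicate check and no p-value is given. Changes were counted by size: at least 2-fold, with the exact 95% interval past 1.5-fold and 100 or more counts in the larger library. Of 91 ZNF genes with enough counts, 1 met this size rule upward (ZNF423) and 0 downward, against 0.863% and 0.624% of all 12977 genes with enough counts. The interval lay above 1 for 17 of the 91, below 1 for 20 and included 1 for 54. Over all genes with enough counts, 20.4% lay above 1 and 22.0% below, beside 18.7% and 22.0% of the ZNF genes. ZNF469 was just short at 1.98-fold. The lowest ratios, picked after their values were seen, were ZNF467 at 268 to 151 counts (0.557, interval 0.453 to 0.683) and ZNF395 at 581 to 344 (0.585, interval 0.511 to 0.670). Their iCLIP libraries were also lower after irradiation, at log2 -0.37 and -0.29, with no call.

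Across the 98 genes, the iCLIP and RNA-seq changes had the same sign in 53, with a Spearman correlation of 0.23 and a Pearson correlation of 0.42. Without ZNF423 and ZNF469 the Pearson correlation was 0.17 over 96 genes and the Spearman 0.18, so much of the linear relation came from those genes. Over 8490 tested genes with at least 20 RNA-seq counts summed over both libraries, these were 0.22 (Spearman) and 0.32 (Pearson). Genes are not independent replicates, the libraries are shared by all of them, and no p is given.

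**Figure D5:**
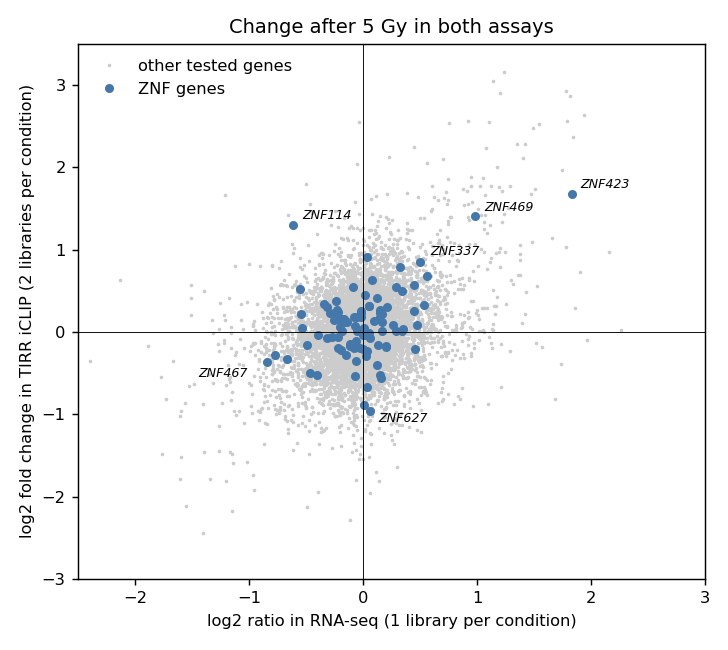
Log2 fold change in iCLIP against log2 ratio in RNA-seq for the ZNF genes and other tested genes. The others had at least 20 RNA-seq counts summed over both libraries, and 6 of these 8392 lie outside the axes. ZNF423 and ZNF469 lie at the upper right, and the other ZNF genes run from -0.84 to 0.56 on the RNA-seq axis.

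A list of silencing genes, called KRAB co-repressor genes here, was looked up in the same fit. It holds TRIM28, SETDB1, ATF7IP, CBX1, CBX3, CBX5, MPHOSPH8, PPHLN1, TASOR, MORC2, CHD3, CHD4, HDAC1, HDAC2, DNMT1 and UHRF1. The list is broader than the genes that KRAB zinc fingers recruit. Of these 16 genes, 14 were listed in an iCLIP library, and HDAC1 and MPHOSPH8 were not. All 14 were tested and 0 called by edgeR, with 1 at an unadjusted p below 0.05 and a median log2 fold change of -0.13. DESeq2 called 0 of the 9 for which it gave an adjusted p. TRIM28, which KRAB domains bind, had log2 0.28, and SETDB1 had -0.11. ATF7IP, which stabilises SETDB1, was the lowest at -0.64 (edgeR adjusted p = 0.288), with RNA-seq counts of 721 and 509, a ratio of 0.698 (0.622 to 0.783). Without the first irradiated library it alone of these was called.

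In the other zinc finger families, 1 of 23 tested ZBTB genes was called, and 0 of 12 ZSCAN, 0 of 5 ZKSCAN and 0 of 9 ZFP genes, and 0 of 12 ZNF genes whose symbol ends in a letter. At an unadjusted p below 0.05 there were 3, 1, 0, 0 and 0. DESeq2 called 1, 0, 0, 0 and 0, of 11, 3, 1, 3 and 3 genes to which it gave an adjusted p. The called one, ZBTB7B, a transcription factor of CD4 T cell fate, had means of 255.3 ± 29.8 CPM untreated and 491.1 ± 32.5 CPM irradiated (SD, n = 2 each). That is 1.93-fold (log2 0.95, SE 0.14, edgeR adjusted p = 0.000488), and its RNA-seq counts were 603 and 605. Of the 292 ZNF genes below 80 counts, 92 were tested and 0 called by edgeR, with 7 at an unadjusted p below 0.05 and a median of -0.07. DESeq2 gave none of them an adjusted p, so it could call none.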

How the data were processed

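Counts were measured in 4 iCLIP libraries (2 untreated, 2 irradiated) and 2 RNA-seq libraries (1 each) of U2OS cells, grouped by their labels. Values deposited by the authors are unscaled cDNA counts for each gene, whole numbers per the file headers. A second deposited column gives the gene as a percent of the library's cDNA, per the file headers, and was not used for tests. Gene lengths in bases were deposited beside the counts, with no definition stated, and for 11 of the 98 ZNF genes the iCLIP and RNA-seq files give different lengths. The build is hg38 and kallisto 0.44.0 is named for RNA-seq, per the submitters' processing notes. The aligner, duplicate removal, annotation release and strand setting were not stated in the sources used here, so overlapping and near-identical genes may share or lose counts. The intergenic line was dropped before scaling. It held 30.6% to 31.3% of all counts in the iCLIP libraries and 44.4% in each RNA-seq library. Of the gene identifiers, 99.9% matched the gene name table, and positions came from RefSeq GRCh38.p14.

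The iCLIP comparison used edgeR 4.0.16 (R 4.3.3) with its quasi-likelihood F test on all genes, with TMM scaling, filterByExpr defaults and Benjamini-Hochberg adjustment at 0.05, two-sided. The code was also run on simulated counts. Those gave every gene the same spread beyond counting error, so they do not measure power or error in these libraries. SE is the absolute log2 fold change over the square root of F. RNA-seq ratios were TMM-scaled with exact conditional 95% intervals. The ratio of iCLIP share to RNA-seq share used a prior count of 0.5. DESeq2 1.42.0, other scalings, filters, thresholds, thinning to equal depth and leaving out each library were alternatives. Python 3.11.15, numpy 2.4.6, pandas 2.3.3, scipy 1.17.1 and matplotlib 3.10.9 did the rest.

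The genes and the lists were chosen with earlier results of these data known. The genes named are those called in iCLIP, the 12 with the most counts, the 6 most positive and 6 most negative changes with groups apart, the 4 on each side of the threshold, those past the RNA-seq size rule, the 5 highest and lowest by iCLIP to RNA-seq ratio and by counts per kb, and ZNF genes with known functions. Other genes named were picked after their values were seen.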

Additional observations from a re-analysis of the deposited data

How the results depend on the processing

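Across the settings, 2 to 5 of the 98 ZNF genes were called: 2 with DESeq2, library totals or the replicate block, and 3 without a filter, with a stricter filter or thinned to equal depth, where ZNF114 took the place of ZNF846 without a filter and thinned. Leaving out 1 library gave 3 to 5 calls, and moved the median log2 fold change over -0.071 to 0.14. The replicate numbers did not pair the libraries (correlation of same-numbered deviations -0.08). Over all genes, the block took the calls from 224 higher and 99 lower to 150 and 40, and those of DESeq2 were 105 and 17. There were 184 and 132 with library totals and 227 and 126 without a filter. With a stricter filter there were 227 and 95, and thinned 196 and 70. Library totals shifted the median of all genes to -0.06 and the share of higher calls from 69.3% to 58.2%. With a minimum of 500 counts, 0 ZNF genes passed the RNA-seq size rule. The median log2 iCLIP to RNA-seq ratio was 1.81 with a prior of 5, 1.79 and 1.25 with minimums of 20 and 200 counts, and 1.80 to 1.83 leaving out 1 library. With all counts as denominator, the mean iCLIP shares were 0.777% untreated and 0.794% irradiated, and the RNA-seq shares 0.196% and 0.192%. KRAB co-repressor calls ranged from 0 to 1 when 1 library was left out. Of 410 recomputed values of 41 named genes, 356 kept direction and call, 8 lost the call, 8 gained one and 38 changed sign. Where DESeq2 gave no adjusted p, a gene could not be called, and its value counts among the 356 if its sign held. The sign changes were all in uncalled genes. ZNF638 had -0.035 with library totals, -0.00097 without a filter and -0.0096 thinned. ZNF536 had -0.056, -0.022 and -0.10 in the same settings. ZNF664 had -0.057, -0.019 and -0.23 there, -0.040 with DESeq2 and -0.047 with the block. Thinned, ZNF131 had 0.022, ZNF644 0.045, ZNF219 -0.037 and ZNF384 0.048. Leaving out 1 library, ranges crossing 0 were -0.060 to 0.31 for ZNF148, -0.084 to 0.12 for ZNF638, -0.16 to 0.071 for ZNF131, -0.30 to 0.14 for ZNF644, -0.26 to 0.15 for ZNF532, -0.35 to 0.0099 for ZNF736, -0.28 to 0.58 for ZNF496, -0.34 to 0.36 for ZNF219, -0.16 to 0.048 for ZNF384, -0.69 to 0.25 for ZNF521, -0.36 to 0.10 for ZNF81, -0.32 to 0.36 for ZNF536, -0.69 to 0.36 for ZNF664 and -0.28 to 0.19 for ZNF768. The cause of these changes was not tested. Beside these, ZNF480, with 80 counts, had an SE of 0.35 on its log2 fold change, and ZNF609, with 1755, one of 0.12.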
